A study of Rattus norvegicus with 3 samples.

Results

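The 6 genes described here encode membrane carriers that move oxalate, sulphate and citrate across kidney tubule cells: the anion exchangers Slc26a1, Slc26a6 and Slc26a7 and the sodium-coupled transporters Slc13a1, Slc13a2 and Slc13a3. They were chosen by symbol for their function, each is read from 1 transcript cluster, a set of probes for a single locus, that names no other gene, and they are 6 of 20667 genes on the array. Signal was measured on Clariom S rat arrays in kidney RNA from 3 male rats, 1 array per rat: 1 at day 5 of oral ethylene glycol (EG, 8 g/kg), 1 at day 2 of the same agent and 1 control. The labels can be read as dosing for 2 or 5 days or as sampling that long after a dose, and the sources used here do not give the strain, the age or what the control rat received. The series title concerns stone formation and tubular injury in EG poisoning, and the comparisons ask how transcripts differed at each time. Each group is a single rat, so animal-to-animal spread is unknown and no difference below has a replicate check or a p-value.

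EG is oxidised in the body to oxalate, which precipitates with calcium as crystals in the tubule. Proximal tubule cells carry Slc26a1 on the blood side, where it exchanges sulphate, bicarbonate and oxalate, and Slc26a6 on the lumen side, where it exchanges chloride for oxalate and other anions. In mice, loss of either exchanger raises urinary oxalate. Slc13a1 takes filtered sulphate back from the lumen with sodium, Slc13a2 takes back citrate and related dicarboxylates, and Slc13a3 takes up dicarboxylates on the blood side. Citrate that stays in the urine binds calcium and slows the growth of calcium crystals. Slc26a7 is a chloride and bicarbonate exchanger on the blood side of acid-secreting intercalated cells.

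The labelled tissue was checked by its markers: uromodulin of the thick ascending limb (Umod) was at 18.67, 18.69 and 18.79 log2 at EG day 5, at EG day 2 and in the control. Havcr1, the gene of the tubular injury protein KIM-1, was at 14.36 at EG day 5, at 18.39 at EG day 2 and at 5.92 log2 in the control. A gene counted as measured where at least 1 array reached 5.34 log2, the 95th percentile of 1058 olfactory receptor genes, and 13546 genes did, all 6 transporters among them on every array. Of these genes, 4.75% were up and 3.62% down by 2-fold or more at EG day 5 against the control, and 4.45% up and 2.45% down at EG day 2. Between the time points 2.21% were up and 3.34% down by that much at EG day 5. Of the genes past 2-fold at EG day 5, 56.7% were higher, against 43.2% once each array was centred on its median. At EG day 2 the share was 64.5%, against 53.9% after quantile normalization. Over all measured genes the median difference from the control was 0.01 (EG day 5) and 0.05 (EG day 2), and between the time points it was -0.03 log2. Against the control, 43.5% of measured genes lay at -0.05 log2 or lower at EG day 5, and 52.3% lay at 0.03 or higher at EG day 2. The list counts below are read beside the shares of all measured genes past 2-fold. Bright genes had larger shares: of 302 with a mean of 15 log2 or more, 5.96% were up and 14.2% down at EG day 5. At EG day 2, 5.63% of them were up and 9.93% down.

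The promoter windows of the SLC13 genes are shown because these 3 relatives differed from the control in unlike ways. Each window runs from 250 bases before to 50 bases after the RefSeq start on assembly GRCr8, written 5′ to 3′ on the gene's strand, with motif matches in capitals. All 3 genes lie on the minus strand, Slc13a1 at chr4:53612655-53612954, Slc13a2 at chr10:63817135-63817434 and Slc13a3 at chr3:174623844-174624143.
Slc13a1: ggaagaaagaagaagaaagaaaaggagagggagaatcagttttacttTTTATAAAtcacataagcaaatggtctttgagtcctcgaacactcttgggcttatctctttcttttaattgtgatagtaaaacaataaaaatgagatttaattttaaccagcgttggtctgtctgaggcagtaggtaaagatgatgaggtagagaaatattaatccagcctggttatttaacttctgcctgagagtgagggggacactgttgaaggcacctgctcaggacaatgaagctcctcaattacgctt
Slc13a2: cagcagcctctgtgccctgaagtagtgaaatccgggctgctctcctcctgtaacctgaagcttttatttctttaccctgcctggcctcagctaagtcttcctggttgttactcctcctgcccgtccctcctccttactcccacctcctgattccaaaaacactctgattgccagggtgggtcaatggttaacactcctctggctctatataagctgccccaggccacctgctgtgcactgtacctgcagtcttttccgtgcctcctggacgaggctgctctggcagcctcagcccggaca
Slc13a3: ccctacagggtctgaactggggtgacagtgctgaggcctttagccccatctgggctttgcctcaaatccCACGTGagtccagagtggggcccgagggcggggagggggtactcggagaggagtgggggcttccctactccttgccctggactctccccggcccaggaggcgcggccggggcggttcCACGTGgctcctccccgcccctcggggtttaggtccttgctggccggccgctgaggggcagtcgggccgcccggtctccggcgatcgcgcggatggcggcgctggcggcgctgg
Both strands were searched for the letters CAAAGTCCA, found in sites of the tubule factor HNF4, the E-box CACGTG and the TATA letters TATAAA. Slc13a1 held TATAAA and, overlapping it on the other strand, the same letters again, 201 and 203 bases before the start, a match that 14.2% of 33469 promoters have. Slc13a3 held CACGTG, which reads the same on both strands, 64 and 181 bases before the start (6.42% of promoters). None of the windows of Slc26a1, Slc13a1, Slc13a2 and Slc13a3 held CAAAGTCCA (0.391% of promoters), and those of Slc26a1 and Slc13a2 held none of the 3 motifs letter for letter. The search took exact letters only. The Slc13a2 window holds the similar letters tatataa, which were not counted, closer to the start than the Slc13a1 matches. The windows also differed in base composition, with 38.3% G and C in Slc13a1, 55.7% in Slc13a2 and 71.7% in Slc13a3, against a median of 51.7% over all promoters. Promoter windows were available for 4 of the 6 genes, and a match describes letters, not a bound site.

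Slc13a1, the sulphate transporter of the lumen side, differed most among the 6 genes. Its signal was 15.69 log2 at EG day 5, 17.89 at EG day 2 and 16.14 in the control. The EG day 2 array was thus the high one, and the EG day 5 array lay a little under the control. Slc13a1 was 3.36-fold higher at EG day 2 than in the control (1.75 log2), a size that 0.723% of measured genes reached in that direction. At EG day 5 it differed from the control by -0.45 log2, and from EG day 2 by -2.2, which is 4.59-fold lower. Of 13546 genes, 21 were as far or further down between the time points, Slc13a1 included. All 3 values lie near or above 16 log2, the range of a 16-bit scanner, in a table whose highest value is 19.93, so the deposited scale may stretch or compress them. Among the 302 measured genes with a mean of 15 log2 or more, 6 were as far or further up at EG day 2, Slc13a1 included, and 5.63% were at least 2-fold higher. Of the same 302 genes, 2 were as far or further down between the time points, Slc13a1 included.

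Slc13a2, the citrate transporter of the lumen side, was lower at EG day 2. It stood at 10.85 log2 at EG day 5, at 9.92 at EG day 2 and at 10.94 in the control. The EG day 5 and control arrays were alike to within 0.09 log2, and the EG day 2 array was the low one. The difference at EG day 2 was -1.02 log2 (2.03-fold lower), just past the 2-fold line, and 2.28% of measured genes were as low or lower. Between the time points Slc13a2 was 1.91-fold higher at EG day 5, just short of 2-fold. Quantile normalization and cyclic loess put that difference at 1.06 log2, past the line. In whole kidney, fewer cells of a type and less RNA per cell cannot be told apart.

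Slc13a3, the dicarboxylate transporter of the blood side, was below the control on both EG arrays. Its signal was 15.65 log2 at EG day 5, 16.03 at EG day 2 and 16.39 in the control. The differences from the control were -0.74 at EG day 5 (1.67-fold lower) and -0.36 at EG day 2 (1.28-fold lower), so neither reached 2-fold. At EG day 5, 7.84% of measured genes were as low or lower. Among the 302 bright genes 72 were, and 14.2% of those genes were at least 2-fold lower at EG day 5.

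**Figure D1:**
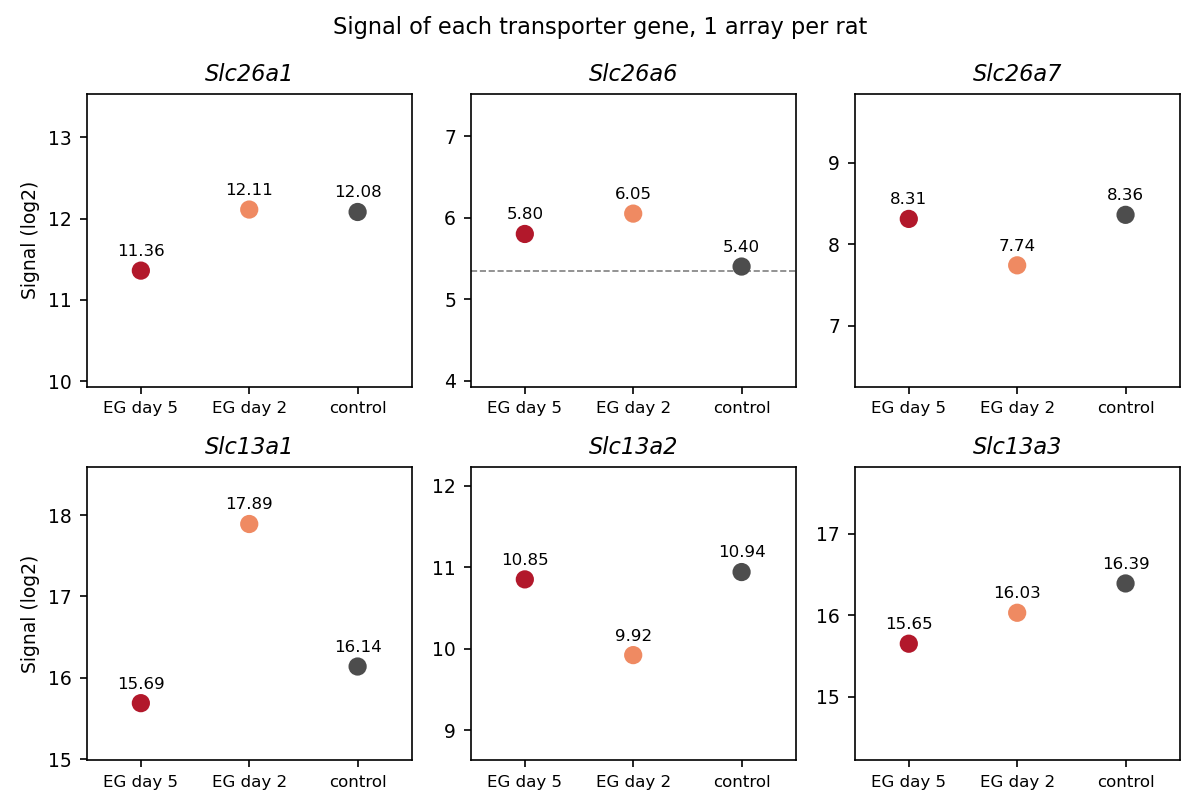
Signal (log2) of the 6 transporter genes at EG day 5, at EG day 2 and in the control, 1 point per array and no error bars because each group is 1 rat; each panel spans the same number of log2 units at its own level, and the dashed line is the background level of 5.34. The EG day 2 point is the highest for Slc13a1 (17.89) and the lowest for Slc13a2 (9.92) and Slc26a7 (7.74).

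The exchanger of oxalate and sulphate on the blood side, Slc26a1, was lower at EG day 5. It had 11.36 log2 at EG day 5, 12.11 at EG day 2 and 12.08 in the control. The EG day 2 and control arrays were nearly the same, and the EG day 5 array was the low one. The difference from the control was -0.72 at EG day 5 (1.65-fold lower) and 0.03 at EG day 2, and the difference between the time points was -0.75. Of all measured genes, 8.36% were as far down or further at EG day 5 against the control, and 7.74% were between the time points.

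Slc26a6, the lumen-side exchanger of chloride and oxalate, was close to background on all arrays. Its signal was 5.8 log2 at EG day 5, 6.05 at EG day 2 and 5.4 in the control, against a background level of 5.34. Both EG arrays were above the control, by 0.4 at EG day 5 (1.32-fold) and by 0.65 at EG day 2 (1.57-fold), and 23.4% and 12.3% of measured genes were as high or higher at those times. The control value lay 0.06 log2 above the background level, and the EG day 2 value 0.71 above it.

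Slc26a7, the exchanger of intercalated cells, was lower at EG day 2. It had 8.31 log2 at EG day 5, 7.74 at EG day 2 and 8.36 in the control. As with Slc13a2, the EG day 2 array was the low one and the EG day 5 array was close to the control. The difference from the control was -0.05 at EG day 5 and -0.62 at EG day 2 (1.54-fold lower), where 8.34% of measured genes were as low or lower.

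Set side by side, 0 of the 6 genes were at least 2-fold from the control at EG day 5. At EG day 2 the sulphate transporter Slc13a1 was past 2-fold upward and the citrate transporter Slc13a2 downward, 1 gene each way, beside 4.45% and 2.45% of all measured genes. Between the time points 1 gene, Slc13a1, was at least 2-fold lower at EG day 5 and 0 were higher, beside 3.34% and 2.21% of all measured genes. The 6 differences had medians of -0.27 (EG day 5) and -0.17 (EG day 2), with ranges of -0.74 to 0.4 and -1.02 to 1.75 log2. At EG day 5, 5 of the 6 were below the control, and Slc26a6 was the exception. At EG day 2, 3 were below and 3 above. Over all measured genes the medians were 0.01 (EG day 5) and 0.05 (EG day 2). The 3 comparisons share arrays, so the EG day 2 array enters both the high Slc13a1 value against control and the low one between the time points.

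**Figure D2:**
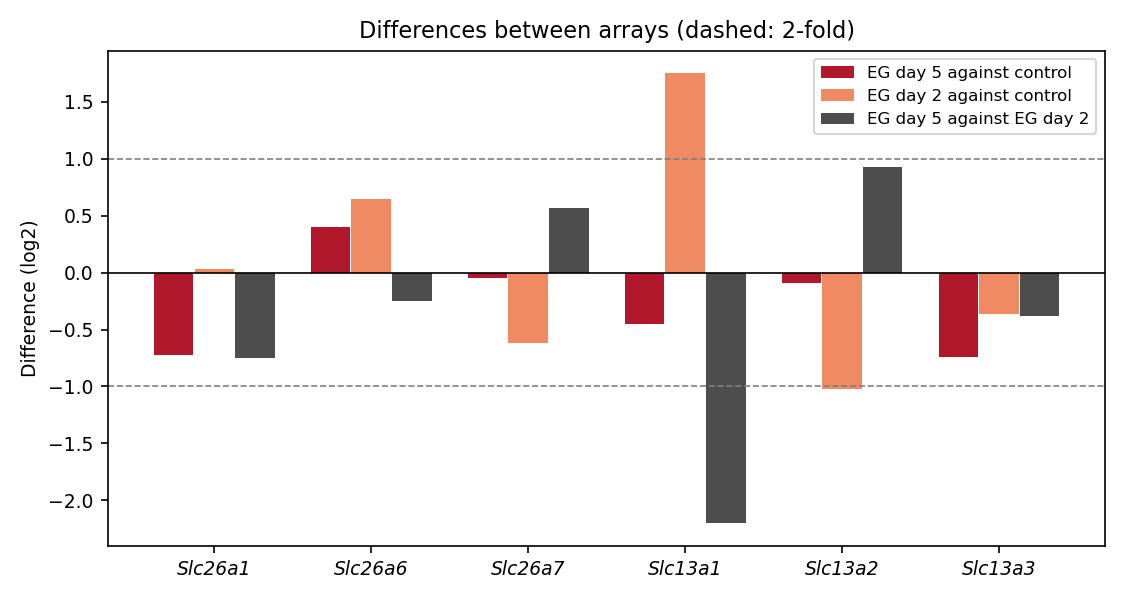
Differences in log2 signal of the 6 transporter genes for EG day 5 against control, EG day 2 against control and EG day 5 against EG day 2, as bars from 0 with dashed lines at 2-fold; each bar is the difference of 2 arrays and has no error. Past the lines are Slc13a1 at EG day 2 (1.75) and between the time points (-2.2), and Slc13a2 at EG day 2 (-1.02).

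**Figure D3:**
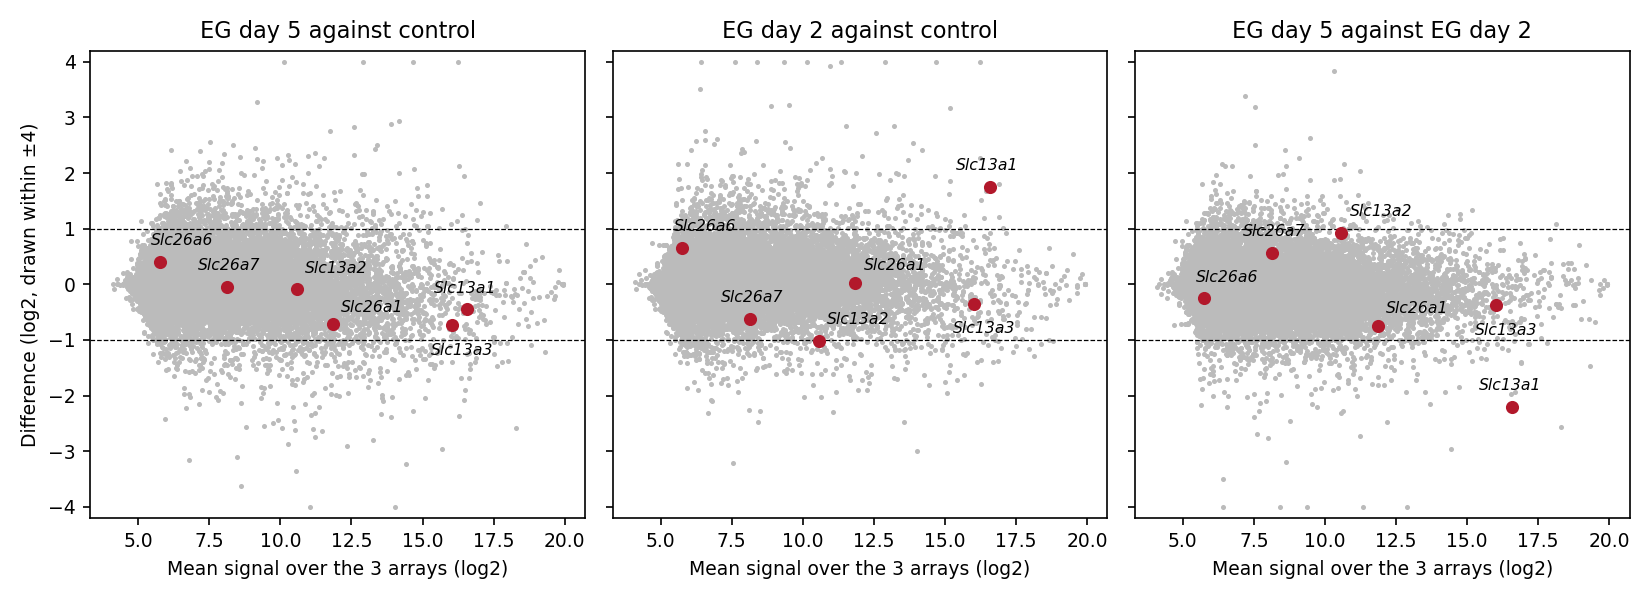
Difference (log2, drawn within ±4) against mean signal over the 3 arrays (log2) for the 13546 measured genes (grey) and the 6 transporters (red), with dashed lines at 2-fold. Slc13a1 lies among the outermost genes of like signal at EG day 2 (1.75) and between the time points (-2.2), and the other 5 genes lie within the grey cloud.

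The genes most like each transporter were found by the Euclidean distance between their differences from the control at both times, over 11928 genes above background on all arrays. For Slc13a1 these were Hmmr, a hyaluronan receptor gene of dividing cells (distance 0.233 log2), Mab21l3 (0.32) and the export pump gene Abcc2 (0.35). Hmmr differed by -0.49 at EG day 5 and by 1.52 at EG day 2. The other 5 transporters had nearer neighbours, with all of the 3 nearest within 0.045. For Slc13a2 these were Sh3bgrl2, the aminoacylase gene Acy1 and Topaz1, and for Slc13a3 LOC100912262, the adenylate kinase gene Ak3 and Cylc2. For Slc26a1 they included Ankra2 and Vsig1. They were for Slc26a6 the ribosomal protein gene Rpl7a, Sh3bgrl and Pacs1, and for Slc26a7 Grcc10, Bloc1s5 and Gsg1l. Likeness over 3 arrays describes these arrays only.

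Other members of both families were under background or, but for 1 gene, less than 2-fold apart. Of 10 further SLC26 and SLC13 genes, 5 were measured, 1 passed 2-fold upward at EG day 2 and 0 downward, and 0 passed it at EG day 5. Their medians were -0.1 at both times. The higher gene was Slc26a2, a sulphate carrier best known from cartilage, at 6.22 log2 at EG day 5, 7.32 at EG day 2 and 6.08 in the control. It was thus high on the same array as Slc13a1, by 2.36-fold against the control. Its EG day 5 and control values were not far above the background level of 5.34. Slc26a4 (pendrin), the chloride and bicarbonate exchanger of the other type of intercalated cell, was above the control by 0.23 at EG day 5 and by 0.38 at EG day 2. Slc26a11 differed by -0.1 at EG day 5 and by -0.74 at EG day 2, Slc26a8 by -0.11 and -0.1, and the sulphate transporter Slc13a4 by -0.49 and -0.27. Slc26a3, Slc26a5, Slc26a9, Slc26a10 and Slc13a5, the last a citrate transporter of liver, were under the background level on all arrays.

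Transcripts of proteins that hold these carriers in place or supply their ion gradients were below the control for 10 of 14 measured genes at EG day 5 and for 11 at EG day 2, mostly by less than 2-fold. Of these partner genes 1 passed 2-fold upward and 1 downward at EG day 5, and 0 and 1 did at EG day 2, with medians of -0.43 and -0.53. The lower gene at EG day 5 was Slc4a4, the sodium bicarbonate cotransporter of the blood side, with 15.36 log2 at EG day 5, 16.55 at EG day 2 and 17.44 in the control. The higher one was the membrane carbonic anhydrase gene Car4, by 1.14 at EG day 5 and by 0.63 at EG day 2. Fxyd2, the gamma subunit of the sodium pump, differed by -0.59 at EG day 5 and by -1.14 at EG day 2. Under cyclic loess its EG day 2 value was -0.99. Pdzk1, a scaffold of the lumen membrane that binds Slc26a6, differed by -0.69 and -0.68. Slc9a3, the sodium and proton exchanger NHE3, differed by -0.09 and -0.55. The scaffold gene Slc9a3r1 (NHERF1) was under background on both EG arrays and at 5.8 log2 in the control, at least 1.38-fold lower.

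Organic anion carriers include the exchangers that spend the dicarboxylate gradient built by Slc13a3. Of 8 measured genes 0 passed 2-fold upward and 1 downward at EG day 5, and 2 and 1 did at EG day 2, with medians of -0.5 at both times. The lower gene was the organic anion exchanger Slc22a8 (OAT3), by -1.44 at EG day 5 and by -1.1 at EG day 2, or -0.99 after quantile normalization. Slc22a6 (OAT1), the related exchanger on the same membrane, differed by -0.29 and -0.36. The higher ones were Abcc2, an export pump of the lumen side, and Slc22a13. Abcc2 stood at 9.22 log2 at EG day 5, 11.08 at EG day 2 and 9.32 in the control, high on the EG day 2 array alone, and Slc22a13 at 8.76, 10.16 and 8.88 on the same arrays.

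Genes that make or use the carried anions are read beside the 3.62% (EG day 5) and 2.45% (EG day 2) of all measured genes that were down by 2-fold or more against the control. Of 10 measured genes from EG to oxalate 0 were higher and 1 lower at EG day 5, and 1 and 1 at EG day 2, with medians of -0.28 and -0.45. Adh1 (alcohol dehydrogenase), which starts EG oxidation, differed by -2.35 at EG day 5 and by -1.61 at EG day 2, and Ldha, a lactate dehydrogenase that can turn glyoxylate into oxalate, by 0.8 and 1.43. Grhpr, which reduces glyoxylate, differed by -0.31 and -0.95. Hao1 and Agxt, both best known from liver, were under the background level on all arrays.

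Of 19 citrate metabolism genes 0 were at least 2-fold higher at either time and 2 were lower at EG day 2, and the medians were -0.27 (EG day 5) and -0.29 (EG day 2). The lower ones at EG day 2 were the cytosolic aconitase Aco1 (-1.13) and Pck1, a gluconeogenic enzyme (-1.02, or -0.88 under cyclic loess). Aco1 had 14.52 log2 at EG day 5, 13.43 at EG day 2 and 14.56 in the control. Its EG day 2 array was the low one and its EG day 5 array close to the control, as for Slc13a2.

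Of 16 measured sulphate metabolism genes 0 were higher and 3 lower at EG day 5, and 0 either way at EG day 2, with medians of -0.15 and -0.11. The 3 lower genes at EG day 5 were the sulphotransferase gene Sult1c2 (-1.47), Papss2, which activates sulphate (-1.21), and the sulphur transferase gene Tst (-1.18). At EG day 2 they differed from the control by -0.5, -0.55 and -0.84.

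Transcripts of proximal tubule regulators were below the control for 9 of 12 measured genes at EG day 5 and for 10 at EG day 2. Of these genes 0 were higher and 2 lower at both times, and the medians were -0.31 (EG day 5) and -0.38 (EG day 2). The medians over all measured genes were 0.01 and 0.05. Both times the lower genes were Vdr, the vitamin D receptor, whose loss in mice lowers renal Slc13a1 (-1.16 and -1.18), and Ppara, a receptor that governs fat oxidation (-2.13 and -1.32). Hnf4a, a transcription factor of the tubule, differed by -0.3 at EG day 5 and by -0.62 at EG day 2.

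Markers of the cells that carry these transporters differed on the same arrays. Of 11 early or general proximal tubule genes (the early list) 0 passed 2-fold upward and 7 downward at EG day 5. At EG day 2 the numbers were 0 and 6, and the medians at the 2 times were -1.15 and -1.01. Under other background, normalization and cluster settings, 5 to 8 passed downward at EG day 5 and 4 to 6 at EG day 2. The medians then lay between -1.24 and -0.92 and between -1.06 and -0.79. The log2 of the summed signal of these genes was 20.01 at EG day 5, 20.07 at EG day 2 and 20.86 in the control. The lactate transporter gene Slc5a12 differed by -2.97 at EG day 5 and by -1.63 at EG day 2, and the phosphate transporter gene Slc34a1 by -1.05 and -1.16. Slc34a1 was at -0.72 and -0.97 under cyclic loess. The 5 proximal tubule transporters described above are read beside these values: Slc13a1 at EG day 2 was higher where most of these markers were lower. Of 6 late proximal tubule genes 0 were higher and 2 lower at EG day 5 and 1 and 1 at EG day 2, with medians of -0.5 and -0.24.

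Intercalated cell markers are the comparison for Slc26a7. The list was not split into acid-secreting cells and the other type, so it is not a comparison with acid-secreting cells alone. Of 12 measured genes 0 were higher and 1 lower at EG day 5, and 0 either way at EG day 2, with medians of -0.39 and -0.19. At EG day 2, 7 of the 12 genes were below the control and 5 above it, from -0.71 to 0.45. Their summed signal was 16.09 log2 at EG day 5, 16.32 at EG day 2 and 16.87 in the control, and 14.25, 14.38 and 14.58 without its brightest gene, Atp6v0a4. The lower gene was Slc4a9, a bicarbonate transporter (-1.14 at EG day 5 and 0.1 at EG day 2). Of 9 thick ascending limb genes 0 were past 2-fold at EG day 5, and 1 was higher and 1 lower at EG day 2, with medians of -0.28 and -0.2. Of 7 principal cell genes 2 were up 2-fold at EG day 5 and 0 were at EG day 2, with medians of 0.27 and 0.05.

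Injury and macrophage genes at both times and fibroblast genes at EG day 5 were mostly at least 2-fold higher than in the control. Of 13 measured injury genes 12 passed 2-fold upward at EG day 5 and 11 did at EG day 2, with medians of 2.01 and 2.61, and their summed signal was 19.09, 19.74 and 13.11 log2 at EG day 5, at EG day 2 and in the control. Of 11 macrophage genes 8 were up 2-fold at EG day 5 and 7 were at EG day 2, with medians of 1.41 and 1.19. The macrophage gene Adgre1 differed by 1.87 at EG day 5 and by -0.26 at EG day 2, and Cd163 was under background at EG day 2 and in the control. The summed macrophage signal was 17.21, 16.94 and 15.29 at EG day 5, at EG day 2 and in the control, and 11.72, 11.56 and 10.36 without its brightest gene, Lyz2. Of 5 fibroblast genes 5 were up 2-fold at EG day 5 and 2 were at EG day 2, with medians of 1.76 and 0.58, and the collagen genes Col1a1 and Col3a1 differed by 0.27 and 0.33 at EG day 2. The summed fibroblast signal was 15.89, 16.29 and 14.61 on the same arrays, highest at EG day 2, and 14.44, 13.55 and 12.6 without its brightest gene, Dcn, highest at EG day 5. None in these 3 lists was down 2-fold against the control, and Krt20, Itgam and Lum were under the background level on all arrays. The part of cell make-up in the transporter values was not tested.

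**Figure D4:**
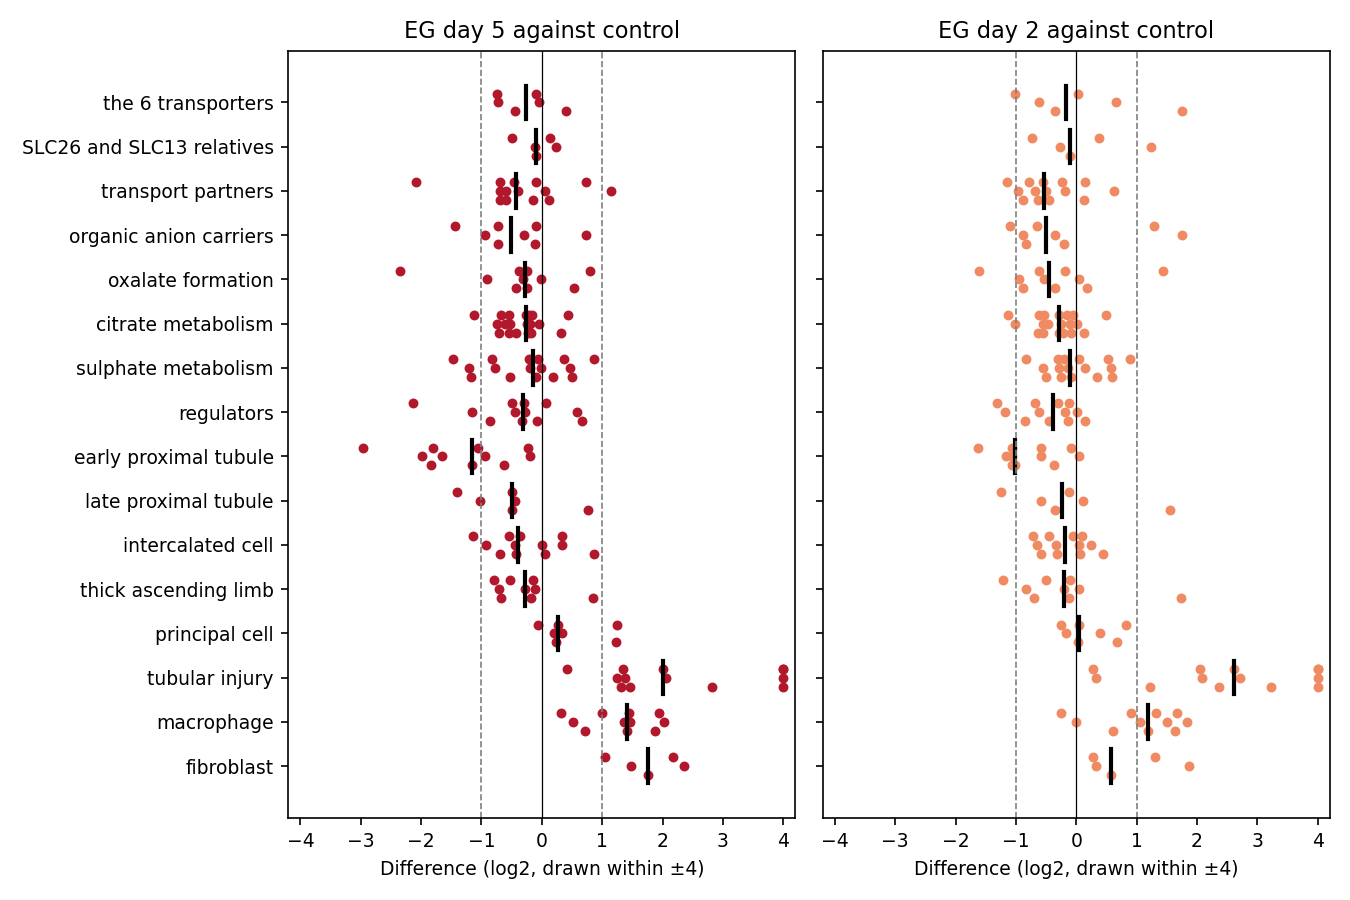
Differences from control (log2, drawn within ±4) at EG day 5 and at EG day 2 for each measured gene of the 6 transporters and of the 15 lists; points are genes, black bars are list medians and dashed lines mark 2-fold. The early proximal tubule list also holds general proximal tubule markers. Its medians (-1.15 and -1.01) lie left of those of the 6 transporters (-0.27 and -0.17), and the injury medians (2.01 and 2.61) lie furthest right.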

How the data were processed

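The authors made 1 log2 signal per transcript cluster with Transcriptome Analysis Console (per the submitters' processing notes), using the rn6 annotation and no filter (per the file headers). The sources used here do not give the program's version, its background correction, its summarisation or how arrays were normalized. Both deposited tables of log2 values were identical (69564 of 69564 values). Of 23188 clusters, 21502 named 1 gene, and a gene was read from its brightest such cluster. Values under the background level of 5.34 were set to it, a difference with 1 side under it is a lower bound (at least N-fold), and a measured gene with both sides under it counts as 0 in a median. The calculation was tested on simulated arrays with known differences and no noise, which checks the arithmetic and not the reliability of single arrays. The number of arrays limits the precision, and no depth is defined for arrays. Alternatives were 2 other background settings, 3 normalizations (quantile and cyclic loess with limma 3.58.1 in R 4.3.3) and the mean of a gene's clusters. Python 3.11.15 with pandas 2.3.3 was used.

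The members, lists and named genes were chosen with earlier results of these data known. Genes are named by rule: the 6 transporters, the 3 genes of most like pattern for each, the other SLC26 and SLC13 genes, the 3 largest differences from control of each list (cell type lists are given mostly by counts), and some carriers, scaffolds and regulators fixed by name. Umod, Hao1, Agxt, Krt20, Itgam, Lum, Cd163, Atp6v0a4, Idua, Celsr3 and Elmo2 fall outside that rule and were chosen after their values were seen. A few genes that the rule names are not reported here. Sqor and Sox9 had no cluster naming them alone. Promoter sequences are RefSeq's, assembly GRCr8, which is not the build of the arrays, so only windows of that assembly are given coordinates.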

Additional observations from a re-analysis of the deposited data

Results flagged for a closer look

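Slc13a1 was below the control at EG day 5 (-0.45 log2) and above it at EG day 2 (1.75), opposite directions at the 2 times. Slc26a1 was below the control at EG day 5 (-0.72) and 0.03 above it at EG day 2. With 1 array per time, the difference between the times was not tested in either case.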

How the results depend on the processing

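Of 108 values of the 6 transporters under 6 alternatives, 106 kept their side of the 2-fold line and moved by less than 1.5-fold, and none past 2-fold changed sign. The exceptions were Slc13a2 between the time points, at 1.06 log2 with quantile normalization and with cyclic loess against 0.93 as deposited, so the number of transporters at least 2-fold higher between the time points was 1 under each of these and 0 otherwise. Slc13a1 at EG day 2 stayed between 1.7 and 1.94, Slc13a2 between -1.13 and -1.02, and Slc13a3 at EG day 5 between -0.83 and -0.38. Slc26a1 at EG day 2 lay between -0.03 and 0.03, so its sign is not settled. Over all genes, those at least 2-fold lower at EG day 2 numbered 332, against 503 where the background was the olfactory receptor median and 601 where none was set. Those at least 2-fold higher between the time points numbered 300, against 510 where none was set. More genes were tested under both of these settings. Against the control, counts of lower genes in the partner, organic anion, oxalate, citrate, intercalated cell and thick limb lists shifted by 1 gene under at least 1 normalization or cluster rule, and no other list count against the control moved by more than 1.5 times. Between the time points, counts in the partner, citrate, sulphate, regulator, early proximal tubule and macrophage lists shifted by 1 or 2 genes under at least 1 alternative. Signal close to background limits Slc26a6. No paired analysis was possible because each group holds 1 array.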

Other observations

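Among the 6 transporters, 3 overlap another protein-coding gene in RefSeq's GRCr8 gene table. Idua, a lysosomal enzyme gene, overlaps Slc26a1 and stood at 12.32 log2 at EG day 5, 12.02 at EG day 2 and 12.14 in the control. It differed from the control by 0.18 at EG day 5, where Slc26a1 differed by -0.72. Elmo2, an adaptor gene of cell engulfment, overlaps Slc13a3 and stood at 8.13, 8.7 and 9.03 on the same arrays. Its differences, -0.9 for EG day 5 and -0.33 for EG day 2, lie beside -0.74 and -0.36 for Slc13a3. Celsr3, a cadherin gene, overlaps Slc26a6 and differed by -0.15 at EG day 5 and by -0.28 at EG day 2, where Slc26a6 differed by 0.4 and 0.65. The part of overlap in these values was not tested.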
